A study of Drosophila melanogaster with 6 samples.

Results

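The gap genes and caudal are a set of 7 transcription factor genes that lay out the body axis of the early fly embryo, and their RNA was examined in Drosophila melanogaster progeny of mothers with altered insulin signalling in the germ line. The members were chosen by symbol: hunchback (hb), Krüppel (Kr), knirps (kni), giant (gt), tailless (tll), huckebein (hkb) and caudal (cad). All 7 were rows of the 14862 genes in the authors' deposited table. The set holds 2 genes whose RNA the mother also loads into the egg, hb and cad, and 5 that are transcribed only by the zygote, Kr, kni, gt, tll and hkb.

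The series asked how embryonic gene expression differs when insulin signalling is lowered in the oocyte. In 1 group of 3 samples the mothers' oocytes expressed InR-DN, a dominant-negative insulin receptor that blocks the normal receptor, and in the control group of 3 samples they expressed GFP. Each sample was RNA of 200 pooled embryos labelled as 16 to 20 h old, and the labels name no promoter for either transgene. The labels are silent on whether a group's 3 samples were separate crosses, and the p-values measure only the variation between these samples, which may be technical.

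In the textbook account, maternal bicoid protein activates zygotic hb in the anterior and represses translation of cad RNA there, while nanos and pumilio block translation of maternal hb RNA in the posterior. The gap genes then repress one another until each holds its own band, and they position the stripes of the pair-rule genes. They fall silent after the body plan is set and several return later, hb and Kr in the sequence of factors that neural stem cells pass through and cad in the gut.

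The authors' deposited table is labelled as a comparison of control embryos against InR embryos. It compared a positive side with a negative side of a log2 fold change. The sources used here do not say which group is the numerator, so the sides are called by sign only, as positive and negative libraries. The table held no value per sample. Its average levels fixed the effective sizes of 12 libraries in the fit. In units of 1000000 reads, 3 positive libraries had sizes of 25.7 to 40.5, 3 negative libraries had 23.4 to 31.1, and 6 that were in the fit without being compared had 15.8 to 33.0. What the 6 libraries outside the comparison were is not known, and no library could be tied to a named sample. Below, levels are reads scaled to an effective library size of 1000000 (CPM), and the 6 libraries of the comparison are called the compared libraries. These went against their labels for genes of the cuticle-forming epidermis, and the levels of other tissue genes are given after them. Of 6 measured genes of the cuticle-forming epidermis, a tissue prominent at the labelled age, Osi7 and TwdlM had no read in the compared libraries and TwdlE had 1. The summed level of the 5 cuticle genes whose reads could be recovered was 0 to 0.215 CPM in a positive library and 0.0854 to 0.161 CPM in a negative one; for the sixth, Osi19, only a lower limit of 0.835 CPM was available. Of 7 neuronal genes, nSyb, Syt1 and para had 13, 7 and 11 reads over all 6 compared libraries, with a summed level of 0.0805 to 0.155 CPM in the positive and 0.171 to 0.289 CPM in the negative libraries. The other 4 had too many reads to be recovered or no matching pattern. Their lower limits were 0.0258 CPM (Cha), 0.258 CPM (brp), 0.416 CPM (elav) and 0.997 CPM (cac). If every read of the fit lay in the compared libraries, they would reach 0.219 (Cha), 1.14 (brp), 262 (elav) and 20.7 CPM (cac). In the authors' deposited table cac was called with a positive sign (edgeR, adjusted p = 0.0413). In the authors' deposited table, 9 of 9 genes of ovarian follicle cells averaged 502 to 5067 CPM over the 12 libraries, and 0 of them passed the edgeR test or had an unadjusted p under 0.05. In the compared libraries only lower limits of 0.0973 to 0.642 CPM were available for these 9 genes, so their level there is unknown. In the same authors' deposited table, 6 of 6 midgut genes were called with a positive sign and 3 of 6 Malpighian tubule genes with a negative one. Of 9 germ line and 9 muscle genes, 0 were called in that table (edgeR), while 3 of the muscle genes had an unadjusted p under 0.05. The log2 fold changes of the muscle genes there were 0.13 to 0.69, with a median of 0.50. Over the 12 libraries the muscle genes averaged 0.720 to 528 CPM, with a median of 2.45 CPM. The part of these cell types in the results was not tested. In such bulk RNA, fewer cells of a type and less RNA per cell cannot be told apart.

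The zygotic genes were scarce in the compared libraries. The 5 zygotic genes together had 103 reads in the 6 compared libraries, while their mean level in the 6 libraries outside the comparison was 15.4 to 210 CPM per gene. No more than 0.582% of the level of any zygotic gene came from the compared libraries. Reads of hb and cad could not be recovered there, and their precision set only a lower limit on their level. The share of hb and cad RNA that came from the compared libraries is therefore unknown, and the limits allow shares close to that of hkb. None of the 7 genes passed the authors' test (edgeR, adjusted p under 0.05), which called 4.49% of all genes.

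**Figure D1:**
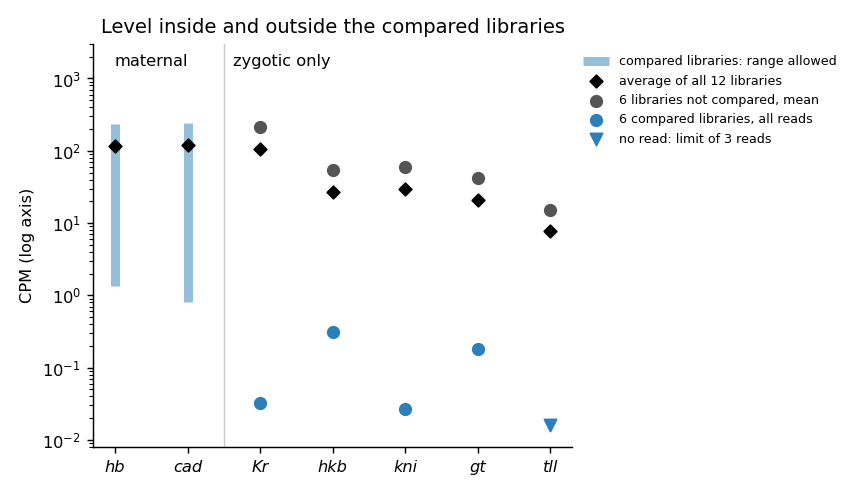
CPM (log axis) of each gene as the average of all 12 libraries (diamonds), the mean of the 6 libraries that were not compared (grey circles) and the pooled level in the 6 compared libraries (blue circles, or a triangle at the limit of 3 reads for tll); the bars give the range allowed for hb and cad. The 4 zygotic genes with reads lie at 0.0267 to 0.309 CPM in the compared libraries, below the lower ends of both bars.

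hb encodes a zinc-finger factor that patterns the head and thorax. Its average over the 12 libraries was 116 CPM in the authors' deposited table, or 34.6 CPM per kb of its longest annotated transcript (3.338 kb). Reads per library could not be recovered for it. Counting noise alone would need at least 143 positive and 112 negative reads to reach the precision of its fold change. That sets a lower limit of 1.36 CPM in the compared libraries. The implied SE sets only a ceiling on a gene's dispersion (spread beyond counting noise), and the lowest ceiling among genes of like average was 0.0224. At a dispersion of 0.0224 the limit for hb would be 23.7 CPM, or 741 reads per library, and it would be lower at a smaller dispersion. At most, with every read of the fit in the compared libraries, hb reached 231 CPM there. The lowest of these limits equals 42.5 reads per compared library, and none of them fixes the level of hb.

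cad encodes a homeodomain factor of the posterior body and, later, of the gut. In the authors' deposited table it averaged 122 CPM over the 12 libraries, or 47.5 CPM per kb (2.57 kb). Its lower limit in the compared libraries was 0.813 CPM with no dispersion, from 84.6 positive and 68.0 negative reads, and its upper limit was 244 CPM. At a dispersion of 0.0224, the lowest ceiling among genes of like average, the lower limit would be 1.89 CPM. Per kb, the lower limits of hb (0.407 CPM per kb) and cad (0.316 CPM per kb) were 2.06 and 1.60 times the level of hkb, the highest of the zygotic genes in the compared libraries at 0.197 CPM per kb.

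The fold changes of the maternal pair were close to 0 in the authors' deposited table. For hb the log2 fold change was 0.06 with an implied SE of 0.18 and a 95% interval of -0.30 to 0.41 (edgeR likelihood ratio test of 3 against 3 libraries, adjusted p = 1). For cad in the authors' deposited table it was 0.02, with an implied SE of 0.23 and an interval of -0.44 to 0.48 (edgeR, adjusted p = 1). Both intervals leave room for a difference of at least 0.30 log2 units in either direction, so they do not show equal levels. Among 739 genes within 0.25 log2 units of its average, 100 (13.5%) had a smaller implied SE than hb, against 456 of 702 (65.0%) for cad.

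The zygotic genes could be read library by library. Their whole reads are given in the order of library size, from the largest to the smallest of each side, so that the first values belong to the deepest library (size 40.5 among the positive and 31.1 among the negative libraries). CPM means are given with SD over 3 libraries per side. The intervals of read ratios are 95% intervals for counting error only.

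Kr encodes a zinc-finger repressor of the central band. It had 0, 0 and 1 reads in the positive libraries and 1, 1 and 3 in the negative ones. These are 0.0130 ± 0.0224 CPM (SD, n = 3) and 0.0647 ± 0.0549 CPM (SD, n = 3). A single read in the smallest positive library and 3 in the smallest negative library were its highest values on each side, and the sides overlapped. Pooled over each side, the level was 6.15 times higher on the negative side, with an interval of 0.688 to 291 that includes no difference. Leaving out 1 library at a time gave 3.41 times (without the third negative library) to 7.81 times, 3.74 and 3.93 times without the first and the second positive library, and no ratio without the third positive library, which held the only positive read. In the authors' deposited table its unadjusted p was 0.0626 and its adjusted p 0.568 (edgeR). The fitted fold change in that table rests on 1 positive read and on the prior count, and is not read as an effect here. Outside the comparison Kr had the highest level of the zygotic genes, 210 CPM or about 5602 reads per library, of which the compared libraries held 0.0185%.

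kni encodes a factor with the zinc fingers of a nuclear receptor that patterns the abdomen. The positive libraries held 0, 0 and 1 reads of it and the negative libraries 3, 1 and 0. In CPM these were 0.0130 ± 0.0224 (SD, n = 3) and 0.0434 ± 0.0489 (SD, n = 3). Libraries without a read occurred on both sides, and the sides overlapped. The negative side was 4.92 times higher, with an interval of 0.487 to 242. It was 1.95 times higher without the first negative library, 3.00 and 3.15 times without the first and the second positive library, and had no ratio without the third positive library. The authors' deposited table gave an adjusted p of 0.769 (edgeR). Outside the comparison its mean was 59.9 CPM.

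gt encodes a leucine-zipper repressor with an anterior and a posterior domain. Its reads were 5, 15 and 5 in the positive libraries against 5, 3 and 1 in the negative ones. In CPM these were 0.124, 0.402 and 0.194 against 0.161, 0.101 and 0.0427. The means were 0.240 ± 0.145 CPM (SD, n = 3) and 0.102 ± 0.0590 CPM (SD, n = 3). The second positive library held 15 of the 25 positive reads, and the highest negative library lay above the lowest positive one, so the sides overlapped. Pooled, the positive side was 2.26 times higher, with an interval of 1.02 to 5.50 that covers counting error alone. Without the second positive library it was 1.41 times higher. The log2 fold change in the authors' deposited table was 1.15 with an implied SE of 0.57, an unadjusted p of 0.0426 and an adjusted p of 0.446 (edgeR). Outside the comparison gt averaged 41.8 CPM, 245 times its mean over the compared libraries.

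tll encodes a nuclear receptor that specifies both ends of the embryo under the torso receptor. It had no read in any of the 6 compared libraries, which allows a level of up to 0.0160 CPM over all 6, or 0.0290 CPM over the positive and 0.0357 CPM over the negative libraries (3 reads each). No fold change can be given for it. In the other libraries its mean was 15.4 CPM, about 410 reads per library and at least 962-fold higher than the limit over the 6 compared libraries.

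hkb encodes a zinc-finger factor of the termini that bounds the mesoderm and gut primordia. Its positive libraries held 10, 10 and 4 reads and its negative libraries 14, 10 and 10. The CPM were 0.247, 0.268 and 0.155 against 0.450, 0.338 and 0.427. All 3 negative libraries lay above all 3 positive ones. The share of all genes whose sides do not overlap is unknown, since reads per library were recovered for scarce genes only. The separation is therefore not read as a trait of hkb. hkb was not called, where the test called 4.49% of all genes. The means were 0.224 ± 0.060 CPM (SD, n = 3) and 0.405 ± 0.0590 CPM (SD, n = 3). Pooled, the negative side was 1.74 times higher, with an interval of 1.00 to 3.07. In the authors' deposited table the log2 fold change was -0.80 with an implied SE of 0.43, an unadjusted p of 0.0634 and an adjusted p of 0.571 (edgeR). Outside the comparison hkb averaged 53.7 CPM, 171 times its mean over the compared libraries.

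**Figure D2:**
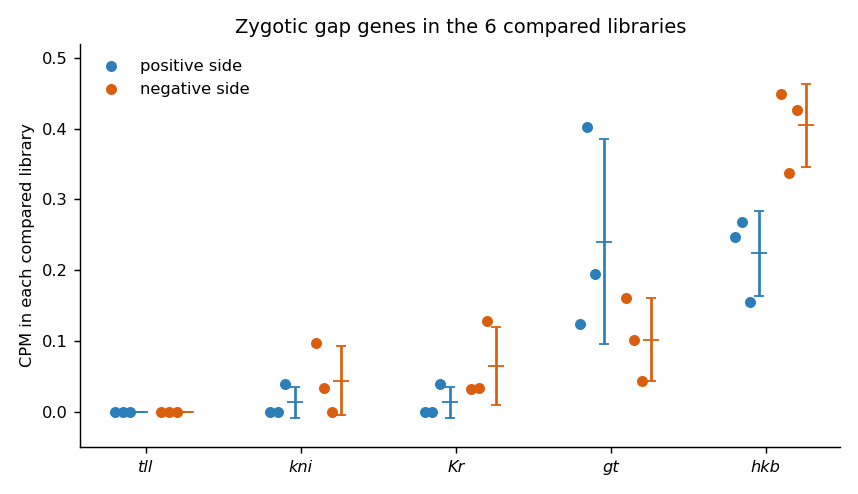
CPM of the 5 zygotic genes in each of the 3 positive (blue) and 3 negative (orange) libraries; bars are the mean ± SD of 3 libraries. The sides of hkb are apart, the sides of gt, Kr and kni overlap, and tll is at 0 in all 6.

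Within the zygotic genes, the order of levels changed between the 2 sets of libraries. Per kb of longest transcript, the libraries outside the comparison had Kr highest at 47.7 CPM per kb, then hkb at 34.2, kni at 28.5, gt at 23.5 and tll at 7.83. In the compared libraries hkb came first at 0.197 CPM per kb, then gt at 0.102, with kni at 0.0127 and Kr at 0.00725 resting on 5 and 6 reads and not separable, and tll at 0. The spread over the 6 other libraries is unknown, so neighbours in their order could not be compared. The sides did not order alike in all genes, with gt higher in the positive libraries and Kr, kni and hkb in the negative ones. Summed over the 5 genes, the positive libraries had 51 reads and the negative ones 52, or 0.493 and 0.618 CPM.

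The test across all 14862 genes called 0 of the 7 members, where it called 667 genes or 4.49% in the authors' deposited table, 342 positive (2.3%) and 325 negative (2.19%). At an unadjusted p under 0.05 it picked 1 member, gt, against 1488 genes or 10%. Leaving out tll, which has no fold change, the median log2 fold change of the other 6 members in the authors' deposited table was -0.39, against 0.03 over the 13080 genes with a read in the compared libraries. It rests on few reads: over Kr, kni, gt and hkb it was -1.34 in the authors' deposited table, and -0.76 with Kr and kni set at the level of 3 reads on their low side. The median over the maternal pair was 0.04 in that table. The average level over the 12 libraries was 2.89 times higher per kb in the maternal pair than in the zygotic genes, which describes a mean over both sets of libraries.

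**Figure D3:**
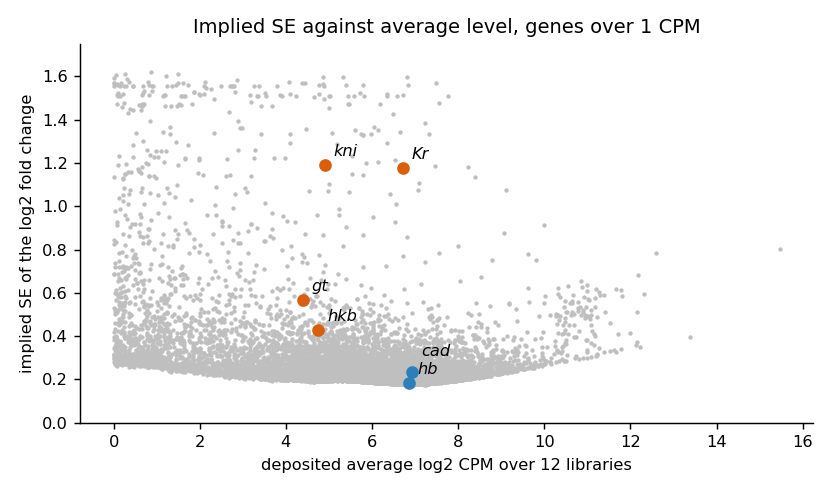
Implied SE of the log2 fold change against the deposited average log2 CPM over 12 libraries, for genes over 1 CPM (grey), with hb and cad in blue and the zygotic genes in orange; tll has no SE. hb lies low among genes of its level at 0.18, cad is among the bulk of the genes at 0.23, and kni and Kr are at 1.19 and 1.18.

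Scarcity of this degree was uncommon among genes above a minimum average, though such ranges also hold genes of far higher average. Of 6398 genes that averaged at least 16 CPM, 82 (1.28%) were recovered with 8 reads or fewer in the compared libraries, among them Kr and kni. Of 7594 genes at 4 CPM or more, 38 (0.50%) had no read there, among them tll. In the range of 1 to 16 CPM, which holds the 7.70 CPM average of tll, 77 of 2334 genes (3.30%) had none.

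The maternal regulators of the gap genes resembled hb and cad in having reads in the compared libraries. All 19 that were measured, bcd, nos and pum among them, had lower limits of 0.327 to 1.31 CPM there. In edgeR's test 0 passed, also at an unadjusted p under 0.05, and the median log2 fold change in the authors' deposited table was 0.15 (-0.06 to 0.58). The smallest unadjusted p-values in the authors' deposited table were 0.0648 for nos, the posterior translational repressor, and 0.0810 for vfl, the activator of the zygotic genome also called zelda (edgeR, adjusted p 0.575 and 0.632). The 17 genes of torso signalling, which turns on tll and hkb at the embryo's ends, had a median log2 fold change of 0.07 there, and 0 of them passed the edgeR test in the authors' deposited table, also at an unadjusted p under 0.05. Their smallest unadjusted p-values in that table were 0.279 for aop, a repressor downstream of torso, and 0.313 for tsl, which is needed to activate the receptor.

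The relatives and partners of the gap genes were mixed in level. Of 17 paralogs, cofactors and head gap genes, 4 had no read in the compared libraries (ems, slp2, dsf and erm) and 8, those included, had 8 reads or fewer. The reads of 4 others (nub, Kr-h1, cnc and opa) were not recovered, and their lower limits were 0.285 to 1.09 CPM. knrl, the paralog of kni, had 3, 1 and 1 reads in the positive libraries against 3, 4 and 2. The authors' deposited table called 1 of the 17, the pair-rule gene opa, at a log2 fold change of -2.0 (edgeR, adjusted p = 1.3e-04), and Kr-h1, which shares the name of Kr but acts in hormone response, had an unadjusted p of 0.0424 and an adjusted p of 0.445. The median log2 fold change of the 13 with a read was -0.29 in that table, or -0.01 with sides of 3 reads or fewer set at 3.

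Among the 20 pair-rule, segment polarity and Hox genes, the targets of the gap genes, 3 had no read in the compared libraries (ftz, prd and slp2) and 10 had 8 or fewer. The authors' deposited table called 4 of the 20. odd, a pair-rule repressor, had 16, 20 and 8 reads in the positive libraries against 1, 3 and 3 in the negative ones. Every positive library lay above every negative one for odd, but the share of all genes separated in this way is unknown, as for hkb. The log2 fold change of odd in the authors' deposited table was 2.27 with an implied SE of 0.56 (edgeR, adjusted p = 0.00206). ptc, the hedgehog receptor, had a positive value too, 0.91 in the authors' deposited table (edgeR, adjusted p = 0.00411). opa (given above) and the Hox gene abd-A at -1.08 (edgeR, adjusted p = 0.0439) were negative in that table. The median of the 17 with a read was -0.12 in that table, or 0 with sides of 3 reads or fewer set at 3.

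Of 12 other genes of the neural stem cell series in which hb and Kr act, 0 passed the edgeR test in the authors' deposited table (3 at an unadjusted p under 0.05), with a median of -0.77 over the 11 with a read, or -0.70 with sides of 3 reads or fewer set at 3. The smallest unadjusted p-values there were 0.00731 for cas, a late factor of the series at a log2 fold change of 0.93, and 0.0253 for grh, which follows it (edgeR, adjusted p 0.128 and 0.319). grh had 2, 0 and 0 reads in the positive libraries against 1, 4 and 3. Of 20 other genes of the gut, tubule and terminal programme, where cad, hkb and tll act, the authors' deposited table called 2, both negative. byn, the hindgut determinant that tll turns on, had no read in the positive libraries and 7, 2 and 0 in the negative ones. Its negative level was at least 3.69-fold higher than 3 reads over the positive libraries (edgeR, adjusted p = 0.00684). Dpt, the antimicrobial peptide gene diptericin, had 3, 0 and 0 against 9, 8 and 11 reads (edgeR, adjusted p = 5.9e-05). The median of the 20 in that table was -0.74, and 0 with sides of 3 reads or fewer set at 3. The 5 recovered genes of 9 zygotic activation markers summed to 0 to 0.0247 CPM in the positive libraries and to 0 in the negative ones, with nullo, bnk, sna and ftz at 0 in all 6. Only scarce genes could be recovered, and the other 4 markers had lower limits of 0.504 to 0.899 CPM in the compared libraries. Of these 4, Sry-alpha and zen were called with a positive sign in the authors' deposited table.

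**Figure D4:**
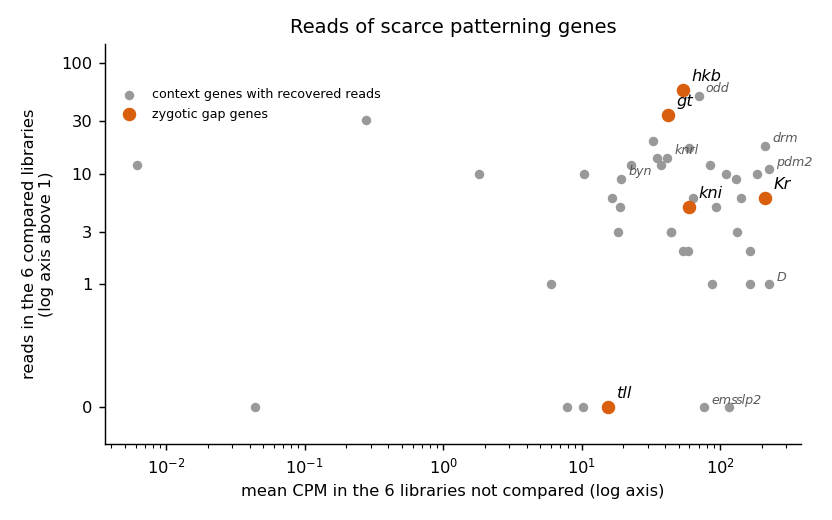
Total reads in the 6 compared libraries (log axis above 1) against mean CPM in the 6 libraries that were not compared (log axis), for the 5 zygotic genes (orange) and the genes of the 6 lists of related genes whose reads were recovered (grey). hkb and odd have the most reads among them, 58 and 51, while tll, ems and slp2 have none.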

How the data were processed

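RNA of 6 samples was measured; per the labels' protocols, libraries were made with a TruSeq stranded total RNA kit, and the descriptions name polyA selection. FastQC, Bowtie and TopHat are named, per the submitters' processing notes; for their versions, the counter and the genome build, not given in the sources used here, no statement is made, and no coordinates are given. Per the file headers, the authors' deposited table is the result of edgeR's likelihood ratio test, holding for 14862 genes the average log2 CPM, the log2 fold change, the test statistic (a score), its p-value and the Benjamini-Hochberg adjusted p-value. It holds no counts per sample, so the authors' test was used as deposited, with a threshold of 0.05 and no refit; 0 columns belong to other samples.

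Dividing the log2 fold change by the root of the statistic gave the implied SE, with 95% intervals from the normal approximation. Effective library sizes were solved from the average log2 CPM of genes with 1 read (prior count 2). The 1 dispersion (0.0533) was fitted to the levels of genes with 2 reads, and 74 of these 78 levels were then found within 1e-11. As the dispersion was fitted to the same levels, this match is not an independent check of it. Whole reads of scarce genes were then searched over the 6 compared libraries. A pattern was accepted if it gave the deposited log2 fold change within 1e-10 (prior count 0.125) once the gene's dispersion was solved from the statistic. Patterns were tried in order of total reads, and exactly 1 matched for Kr, kni, gt and hkb up to 59, 57, 56 and 84 reads in all. This recovery was planned only as a possibility, and its form was worked out on the table itself. Tested on simulated data, the search recovered 196 of 200 with 1 to 8 reads and 16 of 16 with 9 to 60, none wrongly. Transcript lengths are those of the Release 6 annotation. Python 3.11.15, numpy 2.4.6, scipy 1.17.1 and numba 0.67.0 were used.

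All 7 members are named; of each of the 6 lists of related genes, every called gene and the 2 with the smallest unadjusted p; the 8 marker lists are given by counts. cac, the other neuronal and cuticle genes, nub, cnc, Sry-alpha, zen, D, pdm2, drm, knrl, ems, slp2 and genes named as having no read were named with their values known. The members and lists were chosen with earlier results of these data known. Alternatives were other thresholds, low-value filters, centring, transcript lengths and recovery settings.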

Additional observations from a re-analysis of the deposited data

Results flagged for a closer look

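A signal lay outside the compared libraries. The 5 zygotic genes averaged 210 CPM (Kr), 59.9 CPM (kni), 53.7 CPM (hkb), 41.8 CPM (gt) and 15.4 CPM (tll) in the 6 libraries that the authors' fit held without comparing them, above the pooled 0.0160 to 0.309 CPM measured or allowed in the compared libraries. What these libraries were is not known, and the spread among them could not be computed.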

How the results depend on the processing

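For the fold changes of single members there were 34 alternatives. They were other thresholds, a 2-fold minimum, adjustment over genes of 1 or 0.1 CPM or more, and centring on the median of genes of 1 CPM or more (not for tll). Of the 34, 33 kept direction and side of the threshold, but much of this was fixed in advance. Only centring could change a direction, since the others leave the fold change as it is. A stricter threshold or a 2-fold minimum could not turn an uncalled member into a called one. Centring turned cad from 0.02 to -0.0099, both uncalled. The adjusted p (edgeR) ranged from 0.393 to 0.525 for gt, 0.502 to 0.663 for Kr, 0.505 to 0.667 for hkb and 0.700 to 0.922 for kni. Counts of called genes were within 1.5 times of the reported count in 27 of 28 alternatives. A count of 0 could not rise under a stricter threshold or a 2-fold minimum. In the gut, tubule and terminal list 1 gene was called instead of 2 when genes under 1 CPM were left out. Dpt averages 0.291 CPM and was not tested there. The average level of the maternal pair over the zygotic genes was 2.45 times with the shortest transcripts and 3.11 times without division by length. With a dispersion fixed at 0.1, 0 of the 78 levels were matched. With a prior count of 1, 0 were matched too, but the dispersion was tried only in fixed steps and not solved. That result therefore cannot tell whether a prior count of 1 would match. Reads were not searched under either setting. No paired analysis was possible because the recovered libraries carry no replicate number. As reads per library exist for scarce genes only, DESeq2 size factors and refits of the test without a replicate were not run. As an alternative chosen after seeing the data, read ratios were recomputed without each library; all 22 that could be computed kept their direction, at 3.41 to 7.81 for Kr, 1.95 to 6.82 for kni, 1.41 to 3.20 for gt and 1.57 to 1.91 for hkb. Depth limits tll to its upper limit, and Kr and kni to read ratios with very wide intervals.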

Other observations

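Other genes, developmental regulators among them, were missing from the compared libraries as tll was. The genes with the highest averages among those with no read in any of the 6 were slp2, sna, CG34025, CG31002, wor and ems, at a mean of 116, 104, 104, 100.6, 90.8 and 76.4 CPM in the 6 libraries outside the comparison. sna, the mesoderm determinant, and wor, a related neural stem cell gene, are Snail-family repressors. D, a Sox factor that helps activate segmentation genes, had 1 read in the compared libraries against 227 CPM outside them, and pdm2, which follows Kr in the neural stem cell series, had 11 reads against 224 CPM. drm, a gut gene of the odd family, had 0, 3 and 2 reads in the positive libraries and 6, 3 and 4 in the negative ones against 212 CPM outside.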
